A study of Mus musculus with 2 samples.

Results

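The ligands of the epidermal growth factor (EGF) family and their receptors were followed through the kidney of lupus-prone mice. They are 10 genes taken by their symbols from the 31053 genes in each count matrix, namely the 6 ligands *Areg*, *Hbegf*, *Egf*, *Tgfa*, *Ereg* and *Btc* and the 4 receptors *Egfr*, *Erbb2*, *Erbb3* and *Erbb4*. The rule that picks them uses their names and no measured value. The samples were 1 library of pooled kidneys from young and 1 from old MRL-*lpr* mice, which carry the *lpr* mutation of *Fas* and develop a lupus-like nephritis with age. The labels name no treatment, so the libraries differ by age and, in the study's terms, by mild against severe disease, which cannot be told apart. Cells were enriched for innate lymphoid cells (ILCs) and sorted for live cells before 10x Chromium 3′ v3.1 capture, and a share of a library is not a frequency in the kidney. With 1 library per age no variation between mice was measured, no test was made, and all intervals are 95% intervals that cover counting error only.

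EGF family ligands are made as membrane-anchored precursors that are shed by proteases such as ADAM17, and act on the same cell or on neighbours. EGF, TGF-α and amphiregulin bind the receptor EGFR, while HB-EGF and betacellulin bind EGFR and ErbB4. ErbB2 binds no known ligand and works as a partner of the others, and ErbB3, which has little kinase activity, binds neuregulins and signals through its partners. In the kidney, EGF is a product of the loop of Henle and the distal tubule, HB-EGF is induced in injured tubules, and amphiregulin is made by type 2 ILCs (ILC2s) and regulatory T cells in tissue repair.

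The young library held 11429 and the old library 10232 cells that passed the filters of 200 or more genes and no more than 20% mitochondrial unique molecular identifiers (UMIs), with medians of 7881 and 6933 UMIs. Marker genes, none of them an EGF family member, placed 9805 young and 8954 old cells in classes that are called "-like", among them proximal tubule (PT)-like, ILC2-like and T-like cells, while 14.2% and 12.5% of cells were in none. The classes of at least 50 cells in a library were ranked, which left the 16 old endothelial-like cells and the 36 young cells of the loop, distal or collecting duct class out of the ranks. The libraries shared 41 barcodes, 26 of them after filtering. The study's methods name female mice, yet 50.8% of young and 40.6% of old cells had UMIs of Y-linked genes and none of *Xist*, the RNA made from the inactive X chromosome, and 14.6% and 29.1% had *Xist* and no Y-linked UMI. The main comparisons of old with young cells are therefore also given within each of these selections. UMIs of tubule genes reached the immune classes examined for them, which were ILC2-like, T-like, B-like, plasmacytoid dendritic-like and natural killer (NK) or ILC1-like cells. *Kap*, an androgen-regulated gene of the proximal tubule, stood at 2444 CPM among young and 787 CPM among old T-like cells. CPM are UMIs of a gene per 1000000 UMIs of the class.

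*Areg* (ENSMUSG00000029378), which encodes amphiregulin, lies on chromosome 5 of the mouse genome build GRCm38 (mm10) at 91139599 to 91148432 on the plus strand, in a cluster of ligand genes. *Ereg*, for epiregulin (ENSMUSG00000029377; 91074622 to 91093646, plus strand), ends 46 kb before it, and *Btc*, for betacellulin (ENSMUSG00000082361; 91357261 to 91402994, minus strand), begins 209 kb after it. The 3 neighbours did not share a pattern. *Areg* was found mainly in ILC2-like cells, *Btc* at low levels in tubule cells, and *Ereg* gave 1 UMI in the young and 2 UMIs in the old library. The 250 bases before the start of *Areg* are shown because its level set ILC2-like cells apart from every other class. RefSeq promoters were found for 7 of the 10 genes, and *Hbegf*, *Ereg* and *Erbb3* had no entry. In this stretch (RefSeq, GRCm38.p6, chr5:91139349-91139598, plus strand) the capitals mark the palindrome of the cAMP response element, 61 bases before the start, and a TATA box, 31 bases before it:

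*Areg* promoter: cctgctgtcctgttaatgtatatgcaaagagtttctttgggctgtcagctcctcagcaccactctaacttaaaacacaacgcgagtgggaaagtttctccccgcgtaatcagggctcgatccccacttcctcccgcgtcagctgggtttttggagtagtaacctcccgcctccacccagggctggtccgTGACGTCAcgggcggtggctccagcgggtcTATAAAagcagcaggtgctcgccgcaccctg

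Of the 32851 mouse promoters of this length in RefSeq, 1.55% held TGACGTCA and 12.4% held TATAAA on either strand. None of the other 6 genes with a promoter held either motif, and none of the 7 held the AP-1 motif TGAGTCA on either strand, which 4.46% of all promoters held. A match of letters is a description and not a site in use.

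Among the ligands, *Areg* was highest in ILC2-like cells, *Hbegf* in tubule and endothelial cells, *Egf* in loop and distal cells and *Tgfa* in a small group of uroplakin-rich cells, while *Btc* was a rare transcript of the tubule. Among the receptors, *Egfr*, *Erbb2* and *Erbb3* were found in tubule cells and *Erbb4* in loop and distal cells, and plasmacytoid dendritic-like cells held *Erbb3* and *Egfr* as well. In ILC2-like and T-like cells the highest receptor level was 3.51 CPM, of *Erbb3* in old T-like cells. The heat map of all 10 genes shows these patterns side by side.

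**Figure D1:**
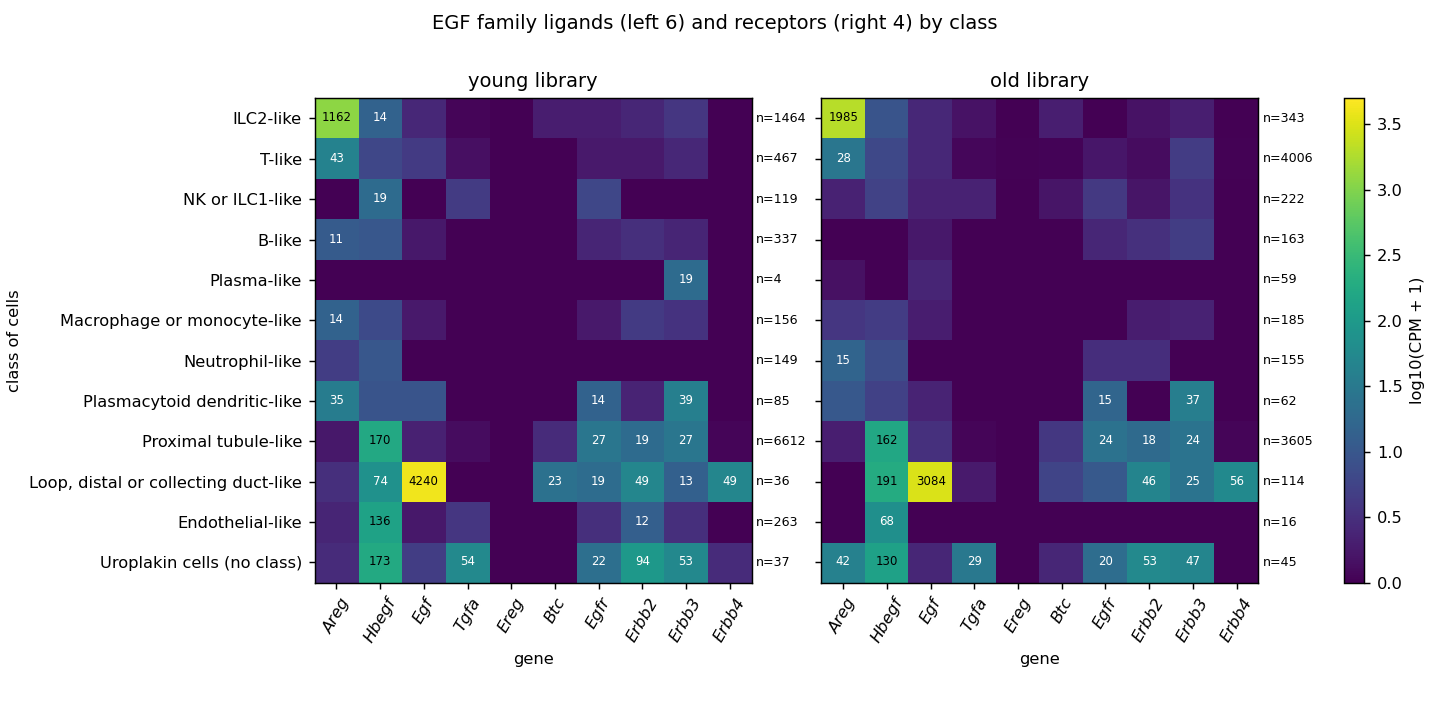
Level of the 6 ligands and 4 receptors (columns) in 11 classes and in uroplakin-rich cells outside the classes (rows), for the young (left) and old (right) library, as log10(CPM + 1) of summed UMIs; levels of at least 10 CPM are printed and n is the number of cells. *Areg* is brightest in ILC2-like cells (1162 and 1985 CPM), *Egf* in loop, distal or collecting duct-like cells (4240 and 3084 CPM) and *Hbegf* in tubule and endothelial cells.

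*Areg* stood at 1162 CPM (1139–1186) among young and 1985 CPM (1922–2050) among old ILC2-like cells. The next class was T-like cells, at 42.7 CPM (35–51.7) in the young library and 27.6 CPM (25.5–29.9) in the old one, so ILC2-like cells were higher by 4.76 (4.49–5.05) and 6.17 (6.04–6.29) on the log2 scale. ILC2-like cells held 78.8% of the *Areg* UMIs of the young library with 5.57% of all its UMIs, and 71.1% with 1.57% in the old library. Cells outside every class held another 19.1% and 14.7%. At least 1 *Areg* UMI occurred in 58.7% of the 1464 young ILC2-like cells and 76.4% of the 343 old ones. With every cell thinned to 1000 UMIs, which left out 5 and 4 cells, the shares were 35.9% and 48.4%. PT-like cells, which served as the background, gave 1.12% and 0.777% before and 0.205% and 0.141% after thinning, with median depths of 13974 and 15072 UMIs against 5213 and 5493 in ILC2-like cells.

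*Areg* was spread unevenly among ILC2-like cells. The median cell held 1 *Areg* UMI in the young and 3 UMIs in the old library, while the highest cells held 108 and 86. The 147 young cells with most *Areg* held 58.6% of its UMIs in the class, and the 35 highest old cells held 48.6%. ILC2-like cells with a UMI of *Il5* or *Il13*, the type 2 cytokines, had 1417 CPM (1372–1464) in the young library and 2197 CPM (2055–2347) in the old one. Those with neither had 1041 CPM (1015–1069) and 1927 CPM (1856–1999). The cytokine-positive cells were thus higher by 0.44 (0.38–0.50) in the young and 0.19 (0.08–0.30) in the old library on the log2 scale.

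Few genes were past 2-fold between ILC2-like cells with and without an *Areg* UMI at 1000 UMIs per cell. At this depth 524 young and 164 old cells had the UMI, against 859 and 262 at full depth. The cells without it thus include cells that hold *Areg*, and how far this lowers the ratios was not tested. With cells thinned to 1000 UMIs, *Nfkbia*, the NF-κB inhibitor that NF-κB itself induces, led the ranking with log2 ratios of 0.39 in young and 0.47 in old cells with an *Areg* UMI over cells without. *Vps37b* followed with 0.30 and 0.64. Of the 2218 genes with at least 100 UMIs in the young cells, 0.0451% were past 2-fold higher, and of 425 such genes in the old cells none was, with 0.235% past 2-fold lower.

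Within T-like cells, *Areg* was highest in those with a UMI of *Foxp3*, the transcription factor of regulatory T cells. The 34 young cells of this kind had 346 CPM (275–430), with *Areg* in 7 cells and 29 of its 81 UMIs in 1 of them, and the 128 old cells had 175 CPM (148–205), with *Areg* in 53 cells. T-like cells with *Cd4* but no *Cd8a*, *Cd8b1* or *Foxp3* UMI had 10.5 CPM (3.43–24.6) in the young library and 40.9 CPM (36–46.2) in the old one. Those with *Cd8a* or *Cd8b1* and neither *Cd4* nor *Foxp3* had 1.11 CPM from 1 UMI and 17.6 CPM (14.8–20.7). T-like cells with no UMI of *Cd4*, *Cd8a*, *Cd8b1*, *Trdc* or *Foxp3* had 31.2 CPM (19.1–48.2) from 5 of 133 young cells, with 15 of the 20 UMIs in 1 cell, and 10.1 CPM (7.86–12.8) from 31 of 1546 old cells. The *Foxp3* cells were higher than these 3 subsets in both libraries, with no overlap of the intervals, while the order of the others changed between the libraries. All T-like cells without a *Foxp3* UMI had 11.5 CPM (7.49–16.8) among young and 21.8 CPM (19.9–23.9) among old cells.

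Other immune classes held little *Areg*. Plasmacytoid dendritic-like cells had 35 CPM (22.9–51.3) from 14 of 85 young cells and 9.6 CPM (3.86–19.8) from 3 of 62 old cells. Macrophage or monocyte-like cells had 13.8 CPM (8.05–22.1) and 2.86 CPM (1.31–5.44), where 15 of the 17 young UMIs came from 1 cell. All 14 *Areg* UMIs of the old neutrophil-like cells came from 1 cell. PT-like cells stood at 0.746 CPM (0.595–0.923) and 1.04 CPM (0.81–1.32), and 31 of the 68 old UMIs lay in 1 cell, without which the old level was 0.568 CPM.

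**Figure D2:**
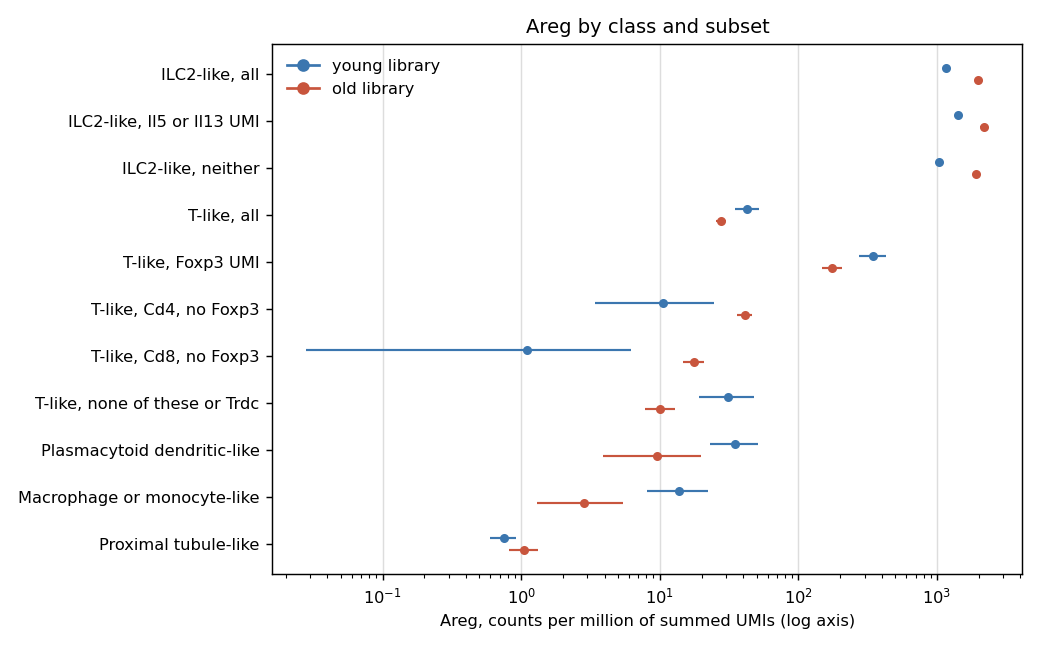
*Areg* level in classes and subsets (rows) on a log axis of CPM, for the young (blue) and old (red) library, with exact Poisson 95% intervals. ILC2-like cells stand above 1000 CPM in both libraries, and T-like cells with a *Foxp3* UMI (346 and 175 CPM) come next.

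*Hbegf* (ENSMUSG00000024486), for heparin-binding EGF-like growth factor, stood at 170 CPM (167–172) among young and 162 CPM (158–165) among old PT-like cells. Endothelial-like cells of the young library had 136 CPM (118–157), and the 16 old ones had 68.1 CPM (27.4–140) from 7 UMIs. Loop, distal or collecting duct-like cells had 74 CPM (51.5–103) from 35 UMIs of 36 young cells and 191 CPM (174–210) in 114 old cells. The immune classes lay far lower, with 13.7 CPM (11.3–16.5) and 8.03 CPM (4.49–13.2) in ILC2-like and 5.19 CPM (2.77–8.88) and 5.29 CPM (4.4–6.32) in T-like cells. PT-like cells exceeded T-like cells by 5.03 (4.25–5.94) in the young and 4.93 (4.67–5.20) in the old library on the log2 scale. Their level was 0.32 (0.11–0.53) above that of young endothelial-like cells, and in the old library the loop, distal or collecting duct class was 0.24 (0.10–0.38) above them. The order of PT-like cells and the loop, distal or collecting duct class was not firm in either library. The ratio of the loop, distal or collecting duct class over PT-like cells was −0.28 in old cells with *Xist*. In the young library, where that class was the lower by the gate, the ratio turned to 0.26 with clusters in place of the gate. PT-like cells held 91.2% and 82.6% of all *Hbegf* UMIs, with 77.3% and 54.7% of all UMIs. An *Hbegf* UMI was found in 46.1% and 42.3% of PT-like cells, or 12.4% and 11% after thinning, against 2.57% and 2.5% of T-like cells, or 0.433% and 0.455%.

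*Hbegf* UMIs were spread unevenly among PT-like cells. The 662 young PT-like cells with most *Hbegf* held 61.3% of its UMIs in the class, and the 361 highest old cells held 69%, while the median cell held 0. The same shares were 53.6% and 55.4% for *Egfr* and 52.8% and 55.6% for *Erbb3*, so such unevenness was not particular to *Hbegf*. PT-like cells with UMIs of at least 3 injury markers, from a list with *Havcr1*, *Lcn2*, *Krt20* and *Vcam1*, had 174 CPM (166–182) in the young library and 332 CPM (317–347) in the old one. Those with none had 106 CPM (100–112) and 96.1 CPM (88.4–104). The injury-marked cells were higher by 0.71 (0.60–0.82) and 1.79 (1.65–1.93) on the log2 scale. The size of this difference depended on the selection. In the young library the levels were 150 against 89.4 CPM in cells with *Xist* and 178 against 158 CPM in Y-linked cells. In the old library they were 196 against 153 CPM and 356 against 151 CPM, both narrower than the pooled difference. A cell of more UMIs shows more markers, and the cells were not matched for depth when they were chosen. After thinning, 16.4% and 22.3% of injury-marked cells had an *Hbegf* UMI, against 8.05% and 5.87% of cells with no marker. The segments S1 and S2 had 177 CPM (173–180) among young and 147 CPM (141–152) among old cells, and the straight S3 segment that follows them had 165 CPM (162–169) and 169 CPM (165–173). This order turned within the selections of the old library, where S1 and S2 were higher than S3 by 0.25 (0.17–0.33) in Y-linked cells and by 0.65 (0.28–1.04) in cells with *Xist* on the log2 scale. In the young library S1 and S2 were higher by 0.09 (0.05–0.13) when pooled and by 0.45 (0.41–0.50) in Y-linked cells. In young cells with *Xist* the difference was 1.23 (0.64–1.90), where S3 had 23 UMIs of 41 cells. In the old library *Hbegf* stood at 260 CPM (231–292) in the 58 loop-like cells and at 125 CPM (106–147) in the 55 distal tubule-like cells.

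PT-like cells with an *Hbegf* UMI differed from those without in many other genes. With 2000 UMIs per cell, 1196 young and 624 old cells with the UMI were set against 4826 and 2828 without. At full depth 3046 of 6612 young and 1525 of 3605 old cells had it, so the cells without it include cells that hold *Hbegf*. How far this lowers the ratios was not tested. The cells were not matched for injury markers or selection, and the part of these in the ratios was not tested either. The 10 leading genes by the lower of the 2 ratios, chosen after their values were seen, were *Dusp5*, *Atf3*, *Nfkbiz*, *Rhob*, *Klf6*, *Gadd45g*, *F3*, *Klf4*, *Gdf15* and *Adamts1*, with log2 ratios of 1.54 to 1.90 among young and 1.73 to 2.44 among old cells. *Atf3*, a stress-induced transcription factor, had 114 against 34.1 CPM in young and 192 against 35.4 CPM in old cells. Over all genes with at least 100 UMIs, 3.45% were past 2-fold higher in young and 8.74% in old cells with *Hbegf*, and 0.805% and 1.41% were past 2-fold lower.

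Pathway genes past 2-fold higher in cells with *Hbegf* were found among feedback genes, receptor inhibitors and *Nrg1*, and in the old library *Erbb2* was one of them. Among genes of MAP kinase feedback and its targets, 3 of 5 measured in the young and 4 of 5 in the old library were past 2-fold higher, with a median log2 ratio of 1.15 and 1.76. They included *Dusp5* (1.90 and 1.89) and *Dusp6* (1.19 and 1.03), which encode phosphatases of ERK, and *Egr1* (1.15 and 1.76), an early growth response gene. Receptor inhibitors gave 2 of 6 and 3 of 5, with *Errfi1*, for an intracellular inhibitor of EGFR, at 1408 against 703 CPM in young and 1856 against 832 CPM in old cells. *Nrg1*, for the ErbB3 and ErbB4 ligand neuregulin 1, had ratios of 1.06 and 1.78. None of the 6 receptor adaptors was past 2-fold in either library. The receptors themselves had ratios of 0.64 and 0.84 for *Egfr*, 0.33 and 1.11 for *Erbb2* and 0.38 and 0.56 for *Erbb3*, from 44 to 99 UMIs in the cells with *Hbegf*.

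**Figure D3:**
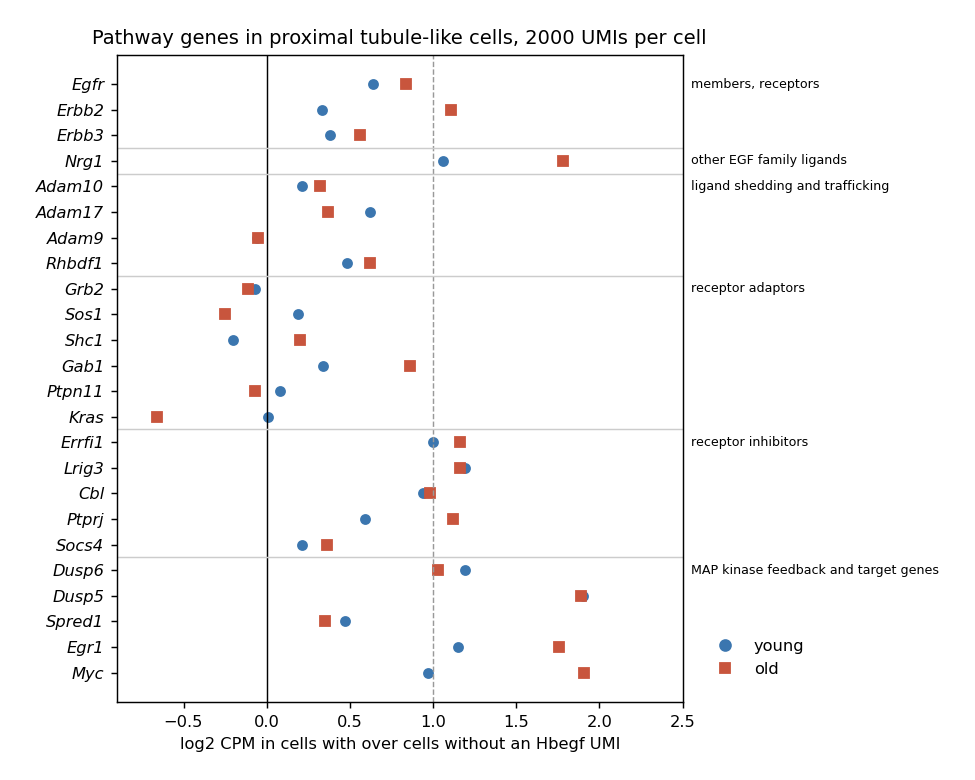
Log2 ratio of CPM in PT-like cells with over cells without an *Hbegf* UMI (x axis), at 2000 UMIs per cell, for pathway genes with at least 100 UMIs in each library (rows, grouped by list) in the young (blue circles) and old (red squares) library. The dashed line marks a log2 ratio of 1, which *Dusp5*, *Dusp6*, *Egr1*, *Lrig3*, *Errfi1* and *Nrg1* reach in both libraries.

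*Egf* (ENSMUSG00000028017; chromosome 3, 129677565 to 129755316, minus strand) was nearly confined to the loop, distal or collecting duct class. This class had 4240 CPM (4057–4430) in the young library, with UMIs in 31 of 36 cells, and 3084 CPM (3013–3156) in the old library, with UMIs in 101 of 114 cells. It held 82.8% and 79.4% of all *Egf* UMIs, and cells outside every class held another 10.5% and 18.5%. Of its cells, 29 young and 58 old were loop-like and 5 and 55 distal tubule-like. Its levels therefore say little about the collecting duct. Loop-like cells had 5143 CPM (4916–5377) and 4557 CPM (4434–4683), and distal tubule-like cells had 999 CPM (784–1254) from 5 cells and 1694 CPM (1620–1770) from 55 cells. The loop-like cells were higher by 2.36 (2.03–2.72) and 1.43 (1.35–1.50) on the log2 scale. PT-like cells had 1.15 CPM (0.956–1.36) and 2.21 CPM (1.86–2.6), and T-like cells, taken as background, had 3.2 CPM (1.38–6.3) and 1.61 CPM (1.13–2.21). Of the 144 old UMIs in PT-like cells, 33 lay in 1 cell, without which the level was 1.7 CPM. The 8.08 CPM of young plasmacytoid dendritic-like cells came from 6 UMIs in 1 cell.

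*Tgfa*, for TGF-α (ENSMUSG00000029999; chromosome 6, 86195223 to 86275719, plus strand), gave 89 young and 68 old UMIs in all. It was highest outside the classes, in cells with at least 3 UMIs of the uroplakin genes *Upk1a*, *Upk1b*, *Upk2* and *Upk3a*, which mark the lining of the urinary tract. These 37 young and 45 old cells were chosen after a first table of the classes had been seen. They had 54.5 CPM (36.8–77.8) of *Tgfa* from 12 young cells and 29.2 CPM (20.9–39.7) from 22 old cells, which was 33.7% and 58.8% of all *Tgfa* UMIs. PT-like cells had 0.337 CPM (0.239–0.463) and 0.138 CPM (0.0632–0.262), lower by 7.34 (6.59–8.06) and 7.72 (6.66–8.95) on the log2 scale. The same cells had 173 CPM (140–211) and 130 CPM (112–150) of *Hbegf*, and 57 *Areg* UMIs lay in 4 of the 45 old cells, 31 of them in 1 cell. *Upk3a* had UMIs in 37 young and 40 old cells, and *Ptprc*, for the leukocyte antigen CD45, had UMIs in 2 and 10.

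*Btc* stood at 1.89 CPM (1.65–2.16) among young and 2.93 CPM (2.53–3.38) among old PT-like cells and followed the tubule segments. S1 and S2 cells had 3.49 CPM (2.98–4.06) and 6.28 CPM (5.23–7.47), against 0.713 CPM (0.52–0.953) and 1.45 CPM (1.12–1.85) in S3, a log2 difference of 2.29 (1.81–2.80) and 2.11 (1.67–2.57). The loop, distal or collecting duct class had 23.3 CPM (11.6–41.6) and 4.74 CPM (2.37–8.48), each from 11 UMIs, and 7 of the young UMIs lay in 1 cell.

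The receptors were found in the epithelium, and *Erbb3* and *Egfr* in plasmacytoid dendritic-like cells as well. *Egfr* (ENSMUSG00000020122; chromosome 11, 16752203 to 16918158, plus strand) stood at 27.4 CPM (26.5–28.4) among young and 24.1 CPM (22.9–25.3) among old PT-like cells, with UMIs in 31.4% and 29.4% of cells. T-like cells, where it was taken as background, had 0.799 CPM (0.0968–2.89) and 0.651 CPM (0.364–1.07), with UMIs in 0.428% and 0.275% of cells at median depths of 4650 and 4832 UMIs. ILC2-like cells had 0.986 CPM (0.426–1.94) from 8 UMIs in the young library, and UMIs occurred in 0 of 343 cells of the old, which allows a share of cells with a UMI of up to 0.875% at their median depth of 5493 UMIs and sets no limit on cells that express the gene. The loop, distal or collecting duct class had 19 CPM (8.7–36.1) from 9 UMIs and 9.91 CPM (6.28–14.9). After thinning, 3.15% of young and 2.4% of old PT-like cells had an *Egfr* UMI.

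*Erbb2* (ENSMUSG00000062312; chromosome 11, 98412470 to 98437716, plus strand) had 48.6 CPM (30.8–73) and 45.7 CPM (37.4–55.2) in the loop, distal or collecting duct class, the highest of the classes. PT-like cells had 18.9 CPM (18.1–19.7) and 17.8 CPM (16.8–18.9), lower by 1.36 (0.70–1.95) in the young and 1.36 (1.06–1.65) in the old library on the log2 scale. This held in Y-linked cells, with 55.7 against 16 CPM and 49.6 against 13.1 CPM, but not in cells with *Xist*, with 46.5 against 44 CPM in the young library and 37.2 against 44.7 CPM, a log2 ratio of −0.26, in the old one. Uroplakin-rich cells were higher still, at 94.4 CPM (70.5–124) and 53.3 CPM (41.8–67), above the loop, distal or collecting duct class by 0.96 (0.22–1.73) and 0.22 (−0.23 to 0.67). Young endothelial-like cells had 12.1 CPM (7.02–19.3), with 1 UMI in each of 17 of 263 cells, and none of the 16 old cells had one.

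*Erbb3* (ENSMUSG00000018166; chromosome 10, 128567523 to 128589652, minus strand) was found in an immune class as well as in the epithelium. Uroplakin-rich cells had 52.7 and 47.4 CPM, which was above PT-like cells by 0.95 (0.37–1.47) and 0.96 (0.58–1.32) on the log2 scale. Plasmacytoid dendritic-like cells, the main makers of type I interferon, had 39 CPM (26.1–56.1) in the young library and 37 CPM (24.4–53.9) in the old one, with UMIs in 21 of 85 and 18 of 62 cells and at most 3 UMIs in a cell. PT-like cells had 27.3 CPM (26.4–28.3) and 24.3 CPM (23.2–25.6), and the difference of 0.51 (−0.07 to 1.04) and 0.61 (−0.00 to 1.15) on the log2 scale lay within counting error. T-like cells had 1.6 CPM (0.435–4.09) and 3.51 CPM (2.79–4.37), so that plasmacytoid dendritic-like cells were higher by 4.61 and 3.40 on the log2 scale, with no overlap of the intervals. After thinning, 8.33% and 6.56% of plasmacytoid dendritic-like and 0.649% and 0.328% of T-like cells had an *Erbb3* UMI.

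*Egfr* showed the same pattern in these cells at a lower level, with 13.5 CPM (6.46–24.8) from 8 young and 15.1 CPM (7.53–27) from 10 old cells. This was higher than in T-like cells by 4.07 (1.84–7.31) and 4.54 (3.27–5.76) on the log2 scale. PT-like cells stood above them by 1.03 (0.14–2.09) in the young library and by 0.67 (−0.17 to 1.68), within counting error, in the old one. *Erbb2* did not, with 1 UMI in the young and 0 in the old cells. Of genes of the proximal tubule, *Lrp2* stood at 20.2 against 38.4 CPM in the young and 11 against 18.5 CPM in the old library, and *Kap* at 1560 against 2444 and 491 against 787 CPM, each lower than in T-like cells. All 85 and 62 cells held *Siglech*, the defining marker, at 2336 and 2188 CPM, and 3 and 1 of them were called doublets. *Klk1*, a marker of these cells that the distal tubule also makes, stood at 924 and 849 CPM. The loop gene *Umod* had 2.69 and 2.74 CPM against 1.6 and 3.47 CPM in T-like cells, and *Slc12a3* of the distal tubule had 4.04 and 0 CPM against 0 and 1.17 CPM. The part of free tubule RNA in the receptor levels of these cells was not tested.

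*Erbb4* (ENSMUSG00000062209; chromosome 1, 68032186 to 69108059, minus strand) gave 57 young and 182 old UMIs. The loop, distal or collecting duct class had 48.6 CPM (30.8–73), with UMIs in 15 of 36 young cells, and 56.5 CPM (47.2–67), with UMIs in 54 of 114 old cells. In the old library loop-like cells had 94.1 CPM (77.1–114) and distal tubule-like cells 19.7 CPM (12.5–29.6), and all 23 young UMIs of the class lay in loop-like cells. PT-like cells had 0.115 CPM (0.0614–0.197) and 0.138 CPM (0.0632–0.262).

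**Figure D4:**
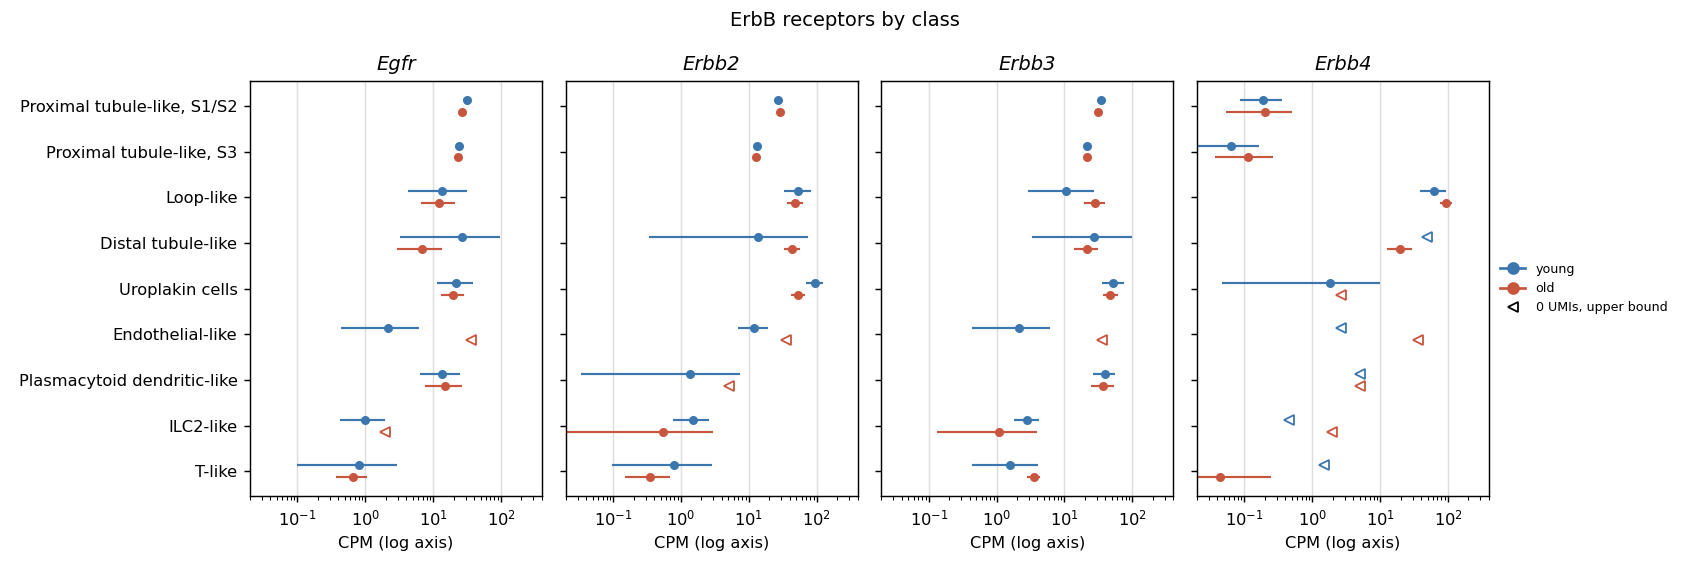
Levels of the 4 receptors (panels) in epithelial, endothelial and immune cells (rows) on a log axis of CPM, for the young (blue) and old (red) library, with exact Poisson 95% intervals; open triangles mark the upper bound where no UMI was counted. *Erbb3* in plasmacytoid dendritic-like cells (39 and 37 CPM) reaches the level of PT-like cells, and *Erbb4* rises in loop-like cells (61.2 and 94.1 CPM).

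Within the proximal tubule *Erbb2* and *Erbb3* were higher in the S1 and S2 segments when all cells were pooled. *Erbb2* stood at 26.5 CPM (25.1–28) among young and 28.6 CPM (26.3–31) among old S1 and S2 cells against 13.2 CPM (12.3–14.1) and 12.9 CPM (11.8–14) in S3. *Erbb3* had 35 CPM (33.3–36.7) and 31.1 CPM (28.7–33.6) against 21.5 CPM (20.4–22.7) and 21.3 CPM (20–22.8). For *Egfr* the difference was smaller, at 0.39 (0.28–0.49) and 0.20 (0.04–0.35) on the log2 scale, against 1.01 (0.88–1.13) and 1.15 (0.98–1.32) for *Erbb2*. The cells with *Xist* were mostly of S1 and S2, and within Y-linked cells the differences of *Erbb2* and *Erbb3* were smaller. There they were 0.68 (0.52–0.85) and 0.24 (−0.10 to 0.57) for *Erbb2* and 0.53 (0.40–0.66) and 0.21 (−0.05 to 0.45) for *Erbb3*, with 0.51 (0.39–0.64) and 0.13 (−0.13 to 0.37) for *Egfr*, so that in old Y-linked cells none of the 3 exceeded counting error. That of *Btc* was 2.15 (1.57–2.75) and 1.89 in Y-linked cells. In cells with *Xist*, where S3 had 41 young and 40 old cells, the *Egfr* differences were 1.41 (0.28–2.87) and 0.30 (−0.42 to 1.13). Those of *Erbb2* were 0.67 (−0.09 to 1.55) and 0.41 (−0.24 to 1.13), and those of *Erbb3* 0.92 (0.13–1.83) and 0.54 (−0.14 to 1.31). The smaller difference of *Egfr* was thus not seen in young cells with *Xist*, and these intervals overlap. Of all PT-like cells, 44.3% of young and 46% of old cells showed none of *Egfr*, *Erbb2* and *Erbb3*, and 6.19% and 5.46% showed all 3.

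*Erbb2* and *Erbb3* differed between PT-like cells with *Xist* and those with Y-linked UMIs in both libraries. *Erbb2* stood at 44 CPM in *Xist* cells and 16 CPM in Y-linked cells of the young library, and at 44.7 and 13.1 CPM in the old library, a log2 difference of 1.46 (1.31–1.61) and 1.77 (1.59–1.96). *Erbb3* differed by 0.90 (0.77–1.03) and 0.94 (0.77–1.11), and *Egfr* by 0.12 (−0.03 to 0.28) and 0.47 (0.28–0.65). *Hbegf* went the other way, with 106 against 206 CPM in the young and 163 against 193 CPM in the old library. Cells with *Xist* were 12% of young and 15.3% of old PT-like cells, and Y-linked cells were 53.4% and 48.9%. The rest lay in neither selection but are part of the pooled levels. Of the cells with *Xist*, S1 and S2 made up 739 of 794 young and 496 of 553 old cells, against 1351 of 3533 and 323 of 1764 Y-linked cells. Within S1 and S2 the *Erbb2* difference was 1.06 (0.89–1.23) and 1.61 (1.28–1.96), that of *Erbb3* was 0.59 (0.44–0.75) and 0.79 (0.52–1.06), and that of *Hbegf* was −1.22 (−1.30 to −1.13) and −0.42 (−0.53 to −0.31). *Kap* had 5071 against 57313 CPM in the young library and 2031 against 47248 CPM in the old one. The number of mice behind each selection is not given in the sources used here.

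**Figure D5:**
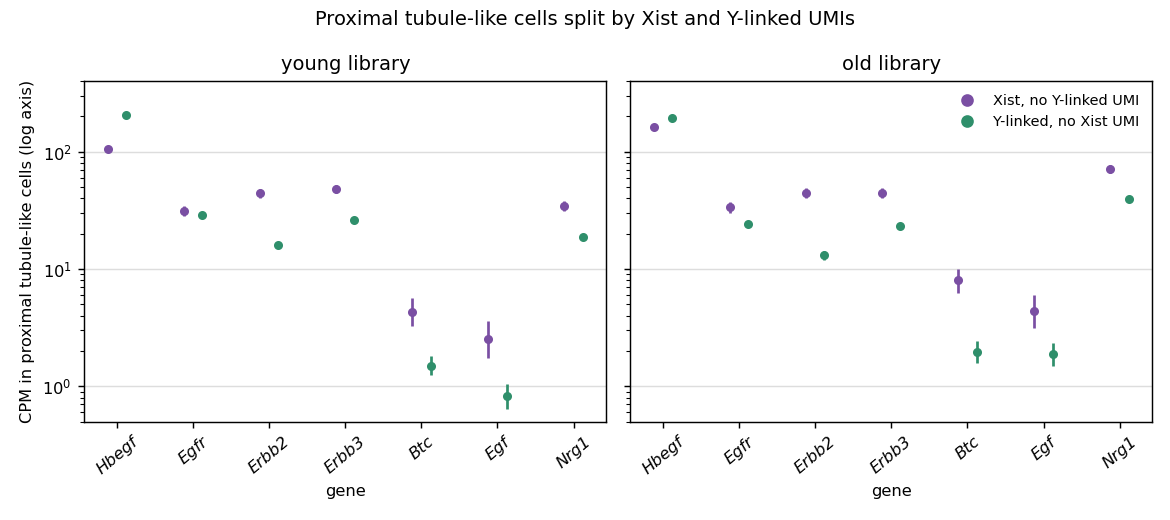
Levels of 7 genes (x axis) in PT-like cells with an *Xist* and no Y-linked UMI (purple) or with Y-linked UMIs but none of *Xist* (green), on a log axis of CPM with exact Poisson 95% intervals, for the young (left) and old (right) library. *Erbb2*, *Erbb3*, *Btc*, *Egf* and *Nrg1* lie higher and *Hbegf* lower in the cells with *Xist* in both libraries.

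Between the libraries, *Areg*, *Hbegf*, *Egf*, *Egfr*, *Erbb2* and *Erbb4* had at least 100 UMIs in the class that led for them over both libraries together. Of these 6 members, 1 was past 2-fold, *Hbegf* in the loop, distal or collecting duct class. With clusters in place of the gate, 0 members were past 2-fold. By the gate *Hbegf* was higher in the old library there by 1.37 (0.87–1.91) on the log2 scale, where 6% of 4199 genes were past 2-fold either way and the young side rested on 36 cells. Within the selections the ratio was 1.30 (0.23–2.64) in 10 young and 47 old cells with *Xist*, and 1.60 (0.93–2.35) in 14 and 42 Y-linked cells. *Egf* in the same class had a ratio of −0.46 (−0.53 to −0.39), but the class held 29 loop-like and 5 distal tubule-like cells in the young and 58 and 55 in the old library. Within loop-like cells the ratio was −0.17 (−0.25 to −0.10) and within distal tubule-like cells 0.76 (0.43–1.12), and by selection it was −0.26 (−0.39 to −0.13) with *Xist* and −0.95 (−1.05 to −0.85) in Y-linked cells. Outside its leading class, *Hbegf* was also past 2-fold in endothelial-like cells, from 136 to 68.1 CPM with an interval of the log2 ratio of −2.33 to 0.07, where 9.2% of 2979 genes were past 2-fold and the old side was 7 UMIs of 16 cells. *Areg* in ILC2-like cells was higher in the old library by 0.77 (0.72–0.83) on the log2 scale, where 3.63% of 7714 genes were past 2-fold. The cells with *Xist* had 1226 CPM in the young library and 1074 CPM in the old one, a ratio of −0.19 (−0.32 to −0.06), and the Y-linked cells had 1123 and 2431 CPM, a ratio of 1.11 (1.04–1.18). *Areg* in T-like cells had a ratio of −0.63 (−0.93 to −0.32), where 8.54% of 9651 genes were past 2-fold. This value rested on few cells and on the mix of subsets. Without the highest cell of each library the levels were 31.2 and 25.7 CPM, and in T-like cells without *Foxp3* the ratio turned to 0.93 (0.36–1.56), with 1.95 (0.71–3.59) in the *Cd4* subset, 3.98 (1.48–9.30), from 1 young UMI, in the *Cd8* subset and −1.62 (−2.36 to −0.83) in the cells with none of the subset genes. It was −2.28 (−2.83 to −1.69) in cells with *Xist*, −0.40 (−0.78 to −0.00) in Y-linked cells and −2.41 (−2.78 to −2.03) in cells with fewer than 3 PT markers and no doublet call.

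*Hbegf* in PT-like cells differed by −0.07 (−0.10 to −0.03), old over young, where 5.32% of 12211 genes were past 2-fold. It was higher in old *Xist* cells by 0.62 (0.51–0.73) and lower in old Y-linked cells, at −0.09 (−0.13 to −0.05). *Egfr* in PT-like cells differed by −0.19 (−0.28 to −0.10), with 0.10 (−0.12 to 0.32) in *Xist* and −0.24 (−0.35 to −0.13) in Y-linked cells. Whether these ratios vary between mice as much as between the libraries was not measured.

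The other genes of the pathway were followed in ILC2-like, T-like, macrophage or monocyte-like, PT-like and endothelial-like cells, where 12 of 111 measured ratios were past 2-fold. By class these were 1 of 21 (4.76%), 4 of 26 (15.4%), 3 of 18 (16.7%), 1 of 33 (3.03%) and 3 of 13 (23.1%), beside 3.63%, 8.54%, 6.28%, 5.32% and 9.2% of all genes. In the loop, distal or collecting duct class, 1 of 12 (8.33%) was past 2-fold beside 6% of all genes. This was *Adam9*, for a shedding protease, with 8.46 CPM from 4 young UMIs and 52.1 CPM in the old library, a log2 ratio of 2.62 (1.23–4.52). In PT-like cells the gene past 2-fold was *Nrg1*, which rose from 19.1 to 40.2 CPM, by 1.07 (0.99–1.16) on the log2 scale. It did so in cells with *Xist*, from 34.6 to 71.6 CPM, and in Y-linked cells, from 18.7 to 39.6 CPM. *Errfi1* was the most abundant gene of the receptor inhibitors there, at 798 and 947 CPM with UMIs in 86.4% and 92.8% of cells, and none of the 8 inhibitors was past 2-fold.

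In T-like cells *Spry1*, for an inhibitor of receptor tyrosine kinase signals, rose from 28.4 to 124 CPM, *Lrig1*, for a receptor inhibitor, from 8.79 to 25.6 CPM, and *Cd9*, for a tetraspanin partner of HB-EGF, from 49.9 to 111 CPM, while *Spry2* fell from 35.2 to 15.6 CPM. In Y-linked T-like cells *Cd9* and *Spry2* were not past 2-fold, at 0.78 (0.43–1.15) and −0.73 (−1.26 to −0.17), while both were in cells with *Xist*, and *Spry1* and *Lrig1* were in both selections. In macrophage or monocyte-like cells, where the median depth was 7091 UMIs in the young and 16071 in the old library, *Cd9* rose by 1.41 (1.14–1.70), and *Errfi1* and *Egr1* fell to ratios of −1.48 (−1.86 to −1.11) and −1.25 (−1.38 to −1.12). In those with *Xist*, *Cd9* at 0.90 (0.26–1.61) and *Egr1* at −0.92 (−1.18 to −0.64) were not past 2-fold. In ILC2-like cells *Spry1* had a ratio of −1.03 (−1.54 to −0.55), with −0.69 (−1.55 to 0.07) in cells with *Xist*, and *Phlda1*, their most abundant gene of the MAP kinase list, had 1182 and 1131 CPM. *Cd9*, *Spry4* and *Egr1* were past 2-fold in endothelial-like cells, whose old side was 16 cells, and in Y-linked ones *Spry4* was not, at −0.90 (−3.21 to 0.69). No receptor adaptor was past 2-fold in any of these classes, with 2 to 6 measured in each.

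Over 20 points, the classes of at least 50 cells in each library, the genes with the pattern most like that of each member were taken from 13203 genes by Pearson's r of log2(CPM + 1). The points share 2 libraries and their free RNA, and the values are descriptions. *Areg* was most like *Vipr2* (0.912), *Olfr1259*, *Il4*, *Cpa3* and *Calca* (0.877). *Cpa3* was also a marker of the basophil or mast class, whose 18 young and 12 old cells were too few to be points and held 0 *Areg* UMIs. *Egf* was most like *Wfdc15b* (0.977), *Umod*, *Sall3*, *Ppp1r1a* and *Cldn4*, and *Hbegf* like *Trip6* (0.940), *Rbbp9*, *Nhs*, *Smo* and *Vdr*. The values for *Egf* rest on 1 point, the old loop, distal or collecting duct class at 3084 CPM. Every other point stood at 8.08 CPM or less, since the 36 young cells of that class were too few to be a point. *Btc* was most like *Epb41l1* (0.922), *Epha7*, *Spire2*, *Esrp2* and *Pacsin3*. Among the receptors, *Egfr* was most like *Atp1b1* (0.874), *Ech1*, *2700046G09Rik*, *Cxxc5* and *Hoxa7*, *Erbb2* like *Ddit4l* (0.943), *Gm29107*, *Cttnbp2*, *Klhdc8a* and *Rgl3*, and *Erbb3* like *Myh14* (0.894), *Pdgfc*, *Mok*, *Nim1k* and *Net1*. With Spearman's rho in place of Pearson's r, at most 1 of the 5 genes stayed for any member.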

How the data were processed

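Libraries of 1 young and 1 old MRL-*lpr* kidney pool were analysed. The authors counted unique molecular identifiers per gene and barcode, and the deposited matrices hold these raw counts (Cell Ranger 3.1.0 per the file headers, version 3 per the labels, build mm10), with no normalization. The members, marker lists and pathway lists were chosen with earlier results of these data known. The cells are barcodes of 200 or more genes with no more than 20% of UMIs from mitochondrial genes. Doublets called by Scrublet (328 young and 246 old cells) were kept.

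A cell took the class of which it held at least 0.4 of the markers, with a lead of 0.15 over the next class, unless it held 0.4 of the markers of another lineage (0.5 for PT markers). These limits, the removal of cells with at least 3 uroplakin UMIs and the *Siglech* UMI required of plasmacytoid dendritic-like cells were set after the counts had been seen, and 437 young and 247 old cells lay within 1 marker of the limit.

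CPM are UMIs summed over a class and scaled to 1000000, with exact Poisson intervals. Shares have exact Clopper-Pearson intervals, and log2 ratios have exact binomial intervals. Past 2-fold means a log2 ratio beyond 1 in size with at least 100 UMIs in the cells compared. A share of 0 was given the limit of 3 counts, and intervals and limits cover counting error only. Cells were thinned with seed 7. Named genes were the members, the 5 genes most like each, and from each pathway list those past 2-fold and the most abundant. Other genes, such as markers, *Il5* and *Foxp3*, and the genes that led cells with *Hbegf* or *Areg*, were chosen after their values were seen. The T-like subsets without *Foxp3* and the segment ratios within each selection were also added then. The ratio and gating steps were tested on simulated data.

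Scanpy 1.11.5, SciPy 1.17.1, NumPy 2.4.6, pandas 2.3.3 and Matplotlib 3.10.9 ran under Python 3.11.15, with GENCODE positions on GRCm38 and RefSeq promoters. The alternatives were other gates, clusters, filters, totals, means, thinning and likeness measures, and selections of cells by *Xist* or Y-linked UMIs.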

Additional observations from a re-analysis of the deposited data

Results flagged for a closer look

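The change of *Areg* between the libraries in ILC2-like cells went opposite ways by selection. It was −0.19 on the log2 scale, old over young, in cells with an *Xist* UMI but none of a Y-linked gene (365 young and 95 old cells), and 1.11 in cells with the opposite pattern, called Y-linked here (755 and 181 cells).

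The change of *Hbegf* in PT-like cells also differed in sign, at 0.62 in cells with *Xist* (794 young and 553 old cells) and −0.09 in Y-linked cells (3533 and 1764 cells). Each selection has 1 library per age, so neither difference was tested.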

How the results depend on the processing

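With 1 library per age no library could be left out. No paired analysis was possible because each age has 1 library and the labels give no pairs. Of the ratios under the alternatives, 254 kept their direction and moved by less than their interval, 45 moved further and 6 reversed. Of the levels, 198 stayed the same and 110 moved, and of the counts 61 stayed and 15 moved. Of the shares of cells, recomputed unthinned or at other thinning depths, 3 stayed and 27 moved.

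Ligands led by an immune class numbered 2 in each library. They were *Areg* with *Egf* in the young library (6 UMIs of 1 plasmacytoid dendritic-like cell) and *Areg* with *Tgfa* in the old (4 UMIs of T-like cells). The old count was 1 with clusters in place of the gate, with CPM averaged over cells, in *Xist* cells, in Y-linked cells and in cells without signs of another class, and the young count was 1 with classes of at least 20 cells and in cells without signs of another class. Receptors led by a tubule class numbered 3 in each library, with *Erbb3* led by plasmacytoid dendritic-like cells.

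Members past 2-fold numbered 0 with clusters, and 2 in Y-linked cells, with at least 20 UMIs and with no filter. The leading class was kept in 8 of 18 cases in *Xist* cells and in 10 in Y-linked cells, where fewer classes reached 50 cells. The pathway ratios past 2-fold numbered 25 in place of 12 with at least 20 UMIs. The old over young ratio of *Areg* in ILC2-like cells was −0.19 in *Xist* cells, 1.11 in Y-linked cells and 0.95 in cells without signs of another class, an alternative chosen after seeing the data. That of *Hbegf* in PT-like cells was −0.02 with clusters and with the mean of CPM and 0.62 in *Xist* cells, and that of *Egfr* was 0.10 in *Xist* cells. The ratio of the loop, distal or collecting duct class over PT-like cells was 0.26 for young *Hbegf* with clusters, and in old *Xist* cells −0.28 for *Hbegf* and −0.26 for *Erbb2*. The causes were not tested. Depth limits *Tgfa*, *Ereg*, *Btc* and *Erbb4*, whose levels rest on few UMIs outside their leading cells.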
